A study of Homo sapiens with 12 samples.

Results

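The transcripts of the mitochondrial genome were followed in microglia-like cells (iMGLs) differentiated from WTC11, a long-established line of human induced pluripotent stem cells. Members were all genes whose symbol starts with MT- in the deposited table, which gave 37 of 62703 genes: 13 protein-coding genes, 2 rRNA genes and 22 tRNA genes. Genes with under 10 counts in every library were set aside, which left 15 members, namely the 13 protein-coding genes and both rRNA genes, and removed the 22 tRNA genes. Bulk RNA-seq of polyadenylated RNA was available for 6 clones made by CRISPR editing of this line, with J, K and L as WT and A, B and C as LACTB KO, and each clone was carried through 2 differentiations (named differentiation 1 and 2 in the labels, which give them as the batch), which gave 12 libraries, 6 per genotype. All groups shared the same protocol: hematopoietic precursors were grown with IL34, TGFb and MCSF, CX3CL1 and CD200 were added for the last days, and no other treatment was given. By the labels, cells were lifted at day 24 and collected at day 27 in all 12 libraries. The paper's methods give a later collection day. The genotype is carried by clones of a single line, so the clone was the replicate, and the p-values describe the spread between these clones. LACTB, a serine protease-like filament protein of the mitochondrial intermembrane space, is encoded in the nucleus and is not a member.

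Mitochondrial DNA is a small circle that encodes core subunits of respiratory complexes I, III, IV and V, together with the rRNAs and tRNAs needed to translate them within the organelle. A nuclear-encoded RNA polymerase, POLRMT, copies both strands into long precursors, and cleavage around the tRNAs that lie between the genes releases the mRNAs and rRNAs. Most of the released mRNAs receive a poly(A) tail, which also completes stop codons that the DNA encodes only in part, whereas the MT-ND6 mRNA is known to lack such a tail. Microglia, the resident macrophages of the brain, use oxidative phosphorylation at rest and shift toward glycolysis on activation.

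The gene ends that meet the poly(A) tail are shown first, because the libraries were made from polyadenylated RNA. In the GRCh38 (hg38) sequence, whose mitochondrial chromosome has 16569 bases, 6 of the 13 protein-coding genes as annotated end in part of a stop codon and 7 end in a whole codon. The last 15 bases of each of the 6 genes are printed 5′ to 3′ on the plus strand, with the part of the stop codon in capitals.
MT-ND1 (chrM:4248-4262): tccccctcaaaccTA
MT-ND2 (chrM:5497-5511): tactaataatcttaT
MT-CO3 (chrM:9976-9990): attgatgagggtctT
MT-ND3 (chrM:10390-10404): tagactgaaccgaaT
MT-ND4 (chrM:12123-12137): ccgggttttcctctT
MT-CYB (chrM:15873-15887): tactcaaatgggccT

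Pairs of neighbouring members share bases, so that reads within these bases belong to both genes. MT-ATP8 and MT-ATP6 overlap by 46 bases at chrM:8527-8572, and MT-ND4L and MT-ND4 by 7 bases at chrM:10760-10766, while MT-ATP6 and MT-CO3 share a single base. That base, chrM:9207, is the last of the annotated MT-ATP6 stop codon (TAA) and the first of MT-CO3. The longer overlaps are printed with 15 flanking bases on each side, on the plus strand, with the shared bases in capitals. They are shown because the deposited counts of these genes depend on how such reads were assigned, which is not given in the sources used here.
MT-ATP8 and MT-ATP6 (chrM:8512-8587): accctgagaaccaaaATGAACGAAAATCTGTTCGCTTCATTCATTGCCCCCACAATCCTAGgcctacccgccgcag
MT-ND4L and MT-ND4 (chrM:10745-10781): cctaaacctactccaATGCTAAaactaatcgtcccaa

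Libraries held between 24153233 and 28406943 estimated counts. LACTB stood between 71.5 and 98.1 CPM (counts divided by the library total and scaled to 1e+06, after TMM scaling of the totals) in the 6 WT libraries. Clone A had 9.78 and 9.52 CPM of LACTB in differentiations 1 and 2, clone C had 7.93 and 7.49, and clone B had 44.4 and 51.6. LACTB RNA was thus below the WT range in all 3 LACTB KO clones, but clone B kept far more of it than A and C. In edgeR's quasi-likelihood test on the clones, the log2 fold change of LACTB was -1.87 (SE 0.675, adjusted p = 0.735, Benjamini-Hochberg). Of 20 microglial identity genes, 19 were above 1 CPM in every library (the exception was TMEM119), and their summed level lay between 8348 and 9819 CPM. Stromal genes such as collagens differed widely between cultures, with summed levels of 15860 CPM in library 1 of clone J (J1), 11210 CPM in K2, 2233 CPM in B2 and 134.8 to 1363 CPM in the other 9. Of the summed lists of other cell types, those of granulocytes and mast cells and of erythroid cells and megakaryocytes stayed below 28.5 CPM, with PRTN3, CLC, HBE1, AHSP, PF4 and PPBP among the genes at 0 in every library, the pluripotent list reached at most 31.1 CPM with DPPA4 at 0, and the endothelial list, with 2 of 10 genes above 1 CPM in every library, lay at 330.4 to 445.5 CPM. In these bulk samples, fewer cells of a type and less RNA per cell cannot be told apart.

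Mitochondrial transcripts made up 14390004 of all counts, and their share differed between cultures. In WT, the MT share was 6.23% in J1 and 5.00% in J2, 4.12% in K1 and 2.68% in K2, and 5.59% in L1 and 3.71% in L2. In LACTB KO it was 4.89% in A1 and 4.61% in A2, 5.31% in B1 and 2.503% in B2, and 4.83% in C1 and 3.59% in C2. The share was lower in differentiation 2 than in differentiation 1 in every clone, while the genotypes overlapped throughout.

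**Figure D1:**
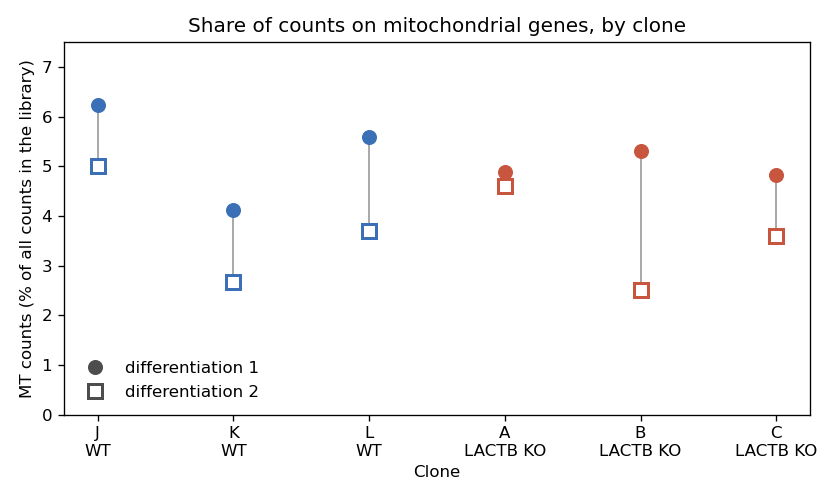
MT counts as a percentage of all counts of a library (vertical axis, starting at 0) in 3 WT clones (blue) and 3 LACTB KO clones (red), with filled circles for differentiation 1, open squares for differentiation 2 and a line joining the libraries of a clone. The square lies below the circle in all 6 clones, by the least in A (4.89% to 4.61%) and by the most in B (5.31% to 2.503%).

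The mean MT share fell from 5.16% ± 0.723 (SD, n = 6 clones) in differentiation 1 to 3.68% ± 1.00 in differentiation 2. The difference of -1.48 percentage points had p = 0.03125 in an exact paired permutation test over the 6 clones (two-sided), the smallest p that this design allows. Within clones the difference was -1.23 points in J, -1.45 in K, -1.88 in L, -0.280 in A, -2.81 in B and -1.24 in C. Differentiation is confounded with the labelled batch, so culture, collection and library batch cannot be told apart. With genotype means taken off, libraries sharing the number across genotypes correlated at a mean r of 0.0363, and those of other differentiations at -0.0357. It was thus not established that the number marks a run common to all clones.

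The level of each of the 15 members, per kilobase of gene, spanned a wide range. The order is given on the scale of mean CPM per kilobase over 12 libraries, which puts genes of different length side by side. The libraries were made from polyadenylated RNA, so the place of the rRNAs also depends on their capture. It is not read as their level in the cells. MT-CO1, the catalytic subunit of cytochrome c oxidase (complex IV), stood highest at 8838 CPM per kilobase, above MT-RNR2, the large-subunit rRNA, at 5017 in 12 of 12 libraries. MT-CO2 and MT-CO3, the other mitochondrial subunits of complex IV, followed at 3497 and 3026 CPM per kilobase, with the complex I subunit MT-ND4 between them at 3282. Their neighbours in this order lay close together: the log2 ratio was 0.10 ± 0.09 (SD over 12 libraries) between MT-CO2 and MT-ND4, with MT-CO2 the higher in 10 of 12 libraries, and 0.10 ± 0.08 between MT-ND4 and MT-CO3, with MT-ND4 the higher in 11 of 12.

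The other complex I subunits, which form the membrane arm, had mean levels of 2744 CPM per kilobase for MT-ND2, 2016 for MT-ND6, 1606 for MT-ND1, 1521 for MT-ND5, 1349 for MT-ND3 and 624.8 for MT-ND4L. MT-CYB, cytochrome b of complex III, lay among them at 1818 CPM per kilobase. The ATP synthase (complex V) subunit MT-ATP6 stood at 2232 CPM per kilobase, whereas MT-ATP8, whose gene overlaps it, stood last at 280. MT-ATP8 and MT-ND4L are short genes that overlap a longer neighbour, so their values depend on how reads were assigned within the pair. They are not read as levels of separate transcripts. MT-RNR1, the small-subunit rRNA, stood at 1098 CPM per kilobase, far below MT-RNR2, which is cut from the same precursor. This gap is likewise one of captured counts, and a difference in rRNA level cannot be read from it. The neighbours MT-ATP6 and MT-ND6 (log2 ratio 0.12 ± 0.27), MT-ND1 and MT-ND5 (0.06 ± 0.09), and MT-ND5 and MT-ND3 (0.16 ± 0.18) did not differ beyond their spread over 12 libraries, the first of each pair being higher in 9, 9 and 11 of them. MT-ND6 is the only protein-coding member on the minus strand, and the library kit does not mark strand, so its reads cannot be told from antisense reads of the opposite strand.

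**Figure D2:**
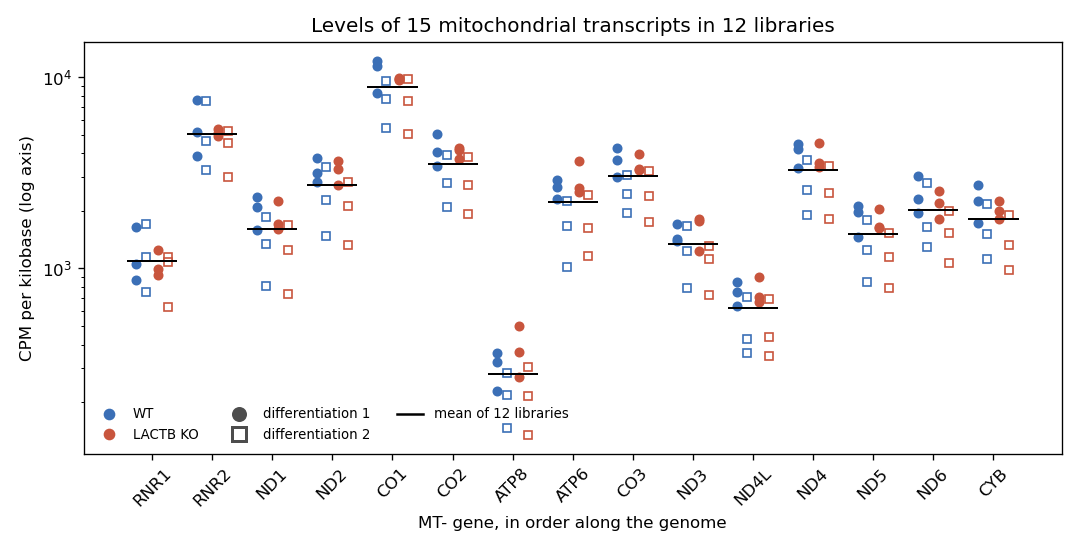
Level of each of the 15 members in CPM per kilobase (log axis), in order along the mitochondrial genome, with blue for WT, red for LACTB KO, filled circles for differentiation 1, open squares for differentiation 2 and a black bar for the mean of 12 libraries. MT-CO1 is highest at a mean of 8838 and MT-ATP8 lowest at 280, and open squares lie mostly below filled circles of the same colour.

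Clones differed from each other in the same manner for nearly all members. Clone J had the highest clone mean for 14 of 15 members, and clone K the lowest for 14 of 15. Single libraries stood at the extremes too, since B2 held the lowest value of 14 of 15 members, and the highest values were in J1 for 9 members and in B1 for 4. For 13 of 15 members the spread between the differentiations of a clone exceeded the spread between clone means on the log2 CPM scale, the exceptions being MT-RNR1 (SD 0.18 within clones, 0.41 between clones) and MT-RNR2 (0.23 and 0.38). The spread within clones includes the shift that the clones shared. With the mean shift taken off, it was also the smaller for MT-CO1 (0.23 and 0.27), MT-CO2 (0.24 and 0.28), MT-ND6 (0.30 and 0.33) and MT-CYB (0.27 and 0.30). It stayed the larger for the other protein-coding members. A clone mean still carries part of the spread within its clone, which widens the spread between clone means. For MT-CO1, MT-CO2, MT-ND6 and MT-CYB the gap was small. Whether the clones themselves differed more than the differentiations of a clone was therefore not established for these members.

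In differentiation 2 against differentiation 1, all 15 members were lower, against 50.8% of all genes tested. The members are cut from long shared precursors and are not independent. Their number, here and below, therefore does not count separate changes. edgeR's quasi-likelihood test with clone as a fixed effect called 0 of 15530 genes at an adjusted p under 0.05 (Benjamini-Hochberg), while an unadjusted p under 0.05 was found for 1546 (9.95%), among them 604 (3.89%) with lower values in differentiation 2. All 13 protein-coding members were among the latter, with log2 fold changes from -0.77 (MT-ATP6) to -0.47 (MT-ND6) and a median of -0.60, but their adjusted p of 0.239 to 0.384 missed the threshold. The median over all genes tested was -0.003. The DESeq2 Wald test on the same libraries gave all 13 protein-coding members an adjusted p under 0.05, against 278 of 12584 genes (2.21%) in either direction and 65 (0.517%) that were lower. Whether the protein-coding members pass the adjusted threshold therefore depended on the tool, while size and direction did not.

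MT-CO1 measured 18696 CPM in J1 and 14660 in J2, 12683 in K1 and 8335 in K2, and 17717 in L1 and 11811 in L2. In LACTB KO, MT-CO1 measured 14892 CPM in A1 and 15010 in A2, 15340 in B1 and 7751 in B2, and 15080 in C1 and 11555 in C2. Differentiation 2 was lower in every clone but A, where the libraries were nearly level. The log2 fold change of MT-CO1 was -0.48 (SE 0.120, edgeR adjusted p = 0.278). Of the other complex IV subunits, MT-CO2 had a log2 fold change of -0.56 (SE 0.123) with the smallest p of any member (edgeR adjusted p = 0.239), and MT-CO3 had -0.56 (SE 0.131).

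Of all members MT-ATP6 of complex V had the most negative log2 fold change. MT-ATP6, the proton channel subunit, measured 1979 CPM in J1 and 1528 in J2, 1574 in K1 and 694 in K2, and 1806 in L1 and 1136 in L2. In LACTB KO, MT-ATP6 measured 1798 CPM in A1 and 1644 in A2, 2486 in B1 and 791 in B2, and 1699 in C1 and 1105 in C2. Each clone was lower in differentiation 2, and the highest library (B1) and the second lowest (B2) came from the same clone. The log2 fold change was -0.77 (SE 0.189, 95% interval -1.20 to -0.33, edgeR adjusted p = 0.273). MT-ATP8, a small accessory subunit of the same complex, had a log2 fold change of -0.67 (SE 0.211) on far lower assigned counts, 70.9 CPM ± 19.3 (SD, n = 6) in differentiation 1 and 44.96 CPM ± 14.5 in differentiation 2. Without clone B the log2 fold change of MT-ATP8 was -0.43, and that of MT-ATP6 -0.59.

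Among the complex I subunits the log2 fold changes ran from -0.66 (MT-ND1, SE 0.192) and -0.65 (MT-ND4L, SE 0.160) through -0.61 (MT-ND5), -0.60 (MT-ND4) and -0.60 (MT-ND2) to -0.49 (MT-ND3, SE 0.164) and -0.47 (MT-ND6, SE 0.148). The value of MT-ND6 holds reads of either strand. MT-CYB of complex III stood at -0.54 (SE 0.132), from 2431 CPM ± 421 in differentiation 1 to 1717 CPM ± 531 in differentiation 2 (SD, n = 6).

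The rRNAs differed less between differentiations. MT-RNR2 measured 11901 CPM in J1 and 11741 in J2, 6010 in K1 and 5127 in K2, and 8021 in L1 and 7217 in L2. In LACTB KO, MT-RNR2 measured 8318 CPM in A1 and 8107 in A2, 7720 in B1 and 4687 in B2, and 7966 in C1 and 7046 in C2. Differentiation 2 was lower in each clone, by little except in B, and clone J stood above all other libraries. Its log2 fold change was -0.22 (SE 0.0988, edgeR adjusted p = 0.516). MT-RNR1 had a log2 fold change of -0.10 (SE 0.0991, edgeR adjusted p = 0.815), and was lower in 3 of 6 clones and higher in J, L and C.

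Counted by clone, 13 of 15 members were lower in differentiation 2 in all 6 clones, against 428 of 15530 genes (2.76%), and the exceptions were MT-RNR1 and MT-CO1, which was higher by 0.01 on the log2 scale in clone A. The size varied strongly between clones. At the median protein-coding member, clone B kept 39.9% of its differentiation 1 level, K 57.6%, L 65.9%, C 73.3%, J 82.3% and A 93.8%. In clone B the log2 differences ran from -1.90 (MT-ATP8) to -0.98 (MT-CO1) for mRNAs and from -0.72 to -0.56 for rRNAs. Clone A lay at the other end, from -0.48 (MT-ND3) to 0.01 (MT-CO1) for mRNAs.

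**Figure D3:**
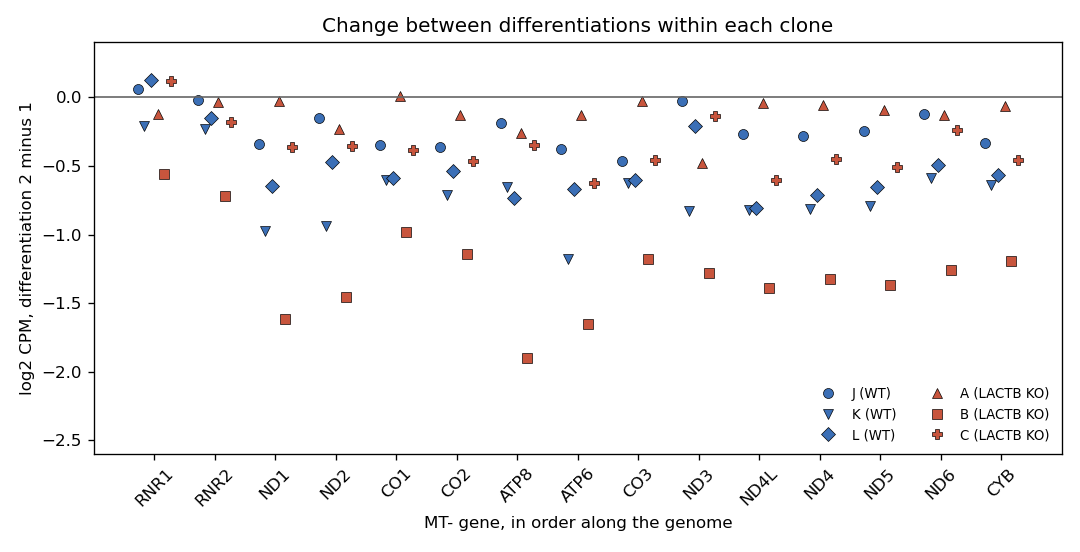
Difference in log2 CPM between differentiation 2 and differentiation 1 within each clone (vertical axis) for the 15 members in order along the mitochondrial genome, with blue symbols for WT and red for LACTB KO clones and a line at 0. Clone B (red squares) is lowest for every member, from -1.90 for MT-ATP8 to -0.56 for MT-RNR1, and clone A (red triangles) lies near 0 for most.

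Stromal transcripts also differed between the differentiations. The summed stromal level was higher in differentiation 2 in K (161.7 to 11210 CPM) and B (295.2 to 2233 CPM), the clones that kept the least MT mRNA, and lower in the other 4 clones, among them J, whose library J1 had both the highest stromal sum and the highest MT share. A fit to clones L, A and C alone, which left out the clones of J1, K2 and B2, was added after the data were seen. In this fit all 13 protein-coding members were lower with an unadjusted edgeR p under 0.05, against 467 of 15544 genes (3%). The median over the 15 members was -0.36, and no adjusted p was under 0.05. With stromal genes taken out of the denominator the MT share differed by -1.49 points and was lower in 6 of 6 clones (exact paired permutation p = 0.03125). This step could change little, since it moved even J1 only from 6.23% to 6.33%. Any other RNA of stromal cells, MT reads included, stayed in. Summed microglial identity genes were lower in differentiation 2 in 2 of 6 clones. The part of stromal content and of other differences between the cultures in the lower MT level was not tested.

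The make-up of the MT counts was compared next. The rRNA part is that of RNA captured in libraries of polyadenylated RNA, not of all rRNA in the cells. The rRNA genes held 21.5% of MT counts in J1 and 25.2% in J2, 16.6% in K1 and 21.9% in K2, and 16.9% in L1 and 22.01% in L2. In LACTB KO they held 19.4% in A1 and 19.6% in A2, 16.2% in B1 and 21.5% in B2, and 19.2% in C1 and 22.3% in C2. Every clone was higher in differentiation 2, and clone A by the least. The mean was 18.3% ± 2.07 in differentiation 1 and 22.1% ± 1.81 in differentiation 2 (SD, n = 6), a difference of 3.80 points with an exact paired permutation p of 0.03125, the smallest the design allows, and 0.109 after Benjamini-Hochberg adjustment over the 7 measures of composition.

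Among mRNAs, the complex V genes (MT-ATP6 and MT-ATP8) took a smaller part in differentiation 2. They held 4.15% of MT protein-coding counts in J1 and 3.99% in J2, 4.71% in K1 and 3.48% in K2, and 4.23% in L1 and 4.01% in L2. In LACTB KO they held 4.75% in A1 and 4.52% in A2, 5.80% in B1 and 4.24% in B2, and 4.67% in C1 and 4.08% in C2. All 6 clones were lower in differentiation 2, with a mean difference of -0.67 points (exact paired permutation p = 0.03125, adjusted 0.109). For complex I (-1.17 points), complex III (0.0499), complex IV (1.79) and MT-ND6 alone (0.178), the clones did not all move the same way and the smallest exact paired permutation p of these measures was 0.156.

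**Figure D4:**
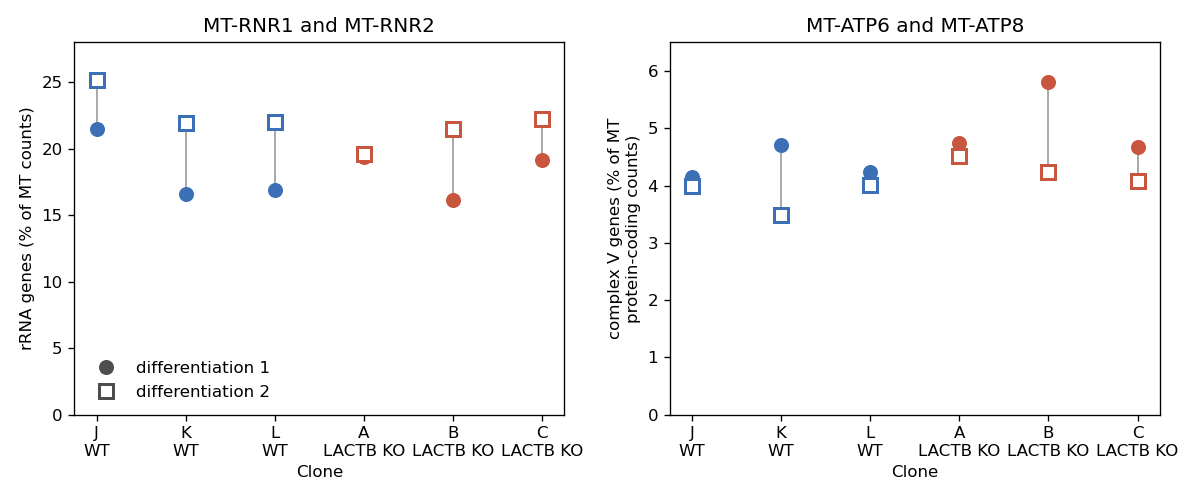
Left, MT-RNR1 and MT-RNR2 counts as a percentage of MT counts; right, MT-ATP6 and MT-ATP8 counts as a percentage of MT protein-coding counts, by clone, with filled circles for differentiation 1, open squares for differentiation 2, blue for WT and red for LACTB KO, and both axes starting at 0. The squares lie above the circles on the left (mean 22.1% against 18.3%) and below them on the right (4.05% against 4.72%) in all 6 clones.

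The nuclear partners of these subunits were set beside them. Of 78 nuclear subunits of the respiratory complexes tested, 48 stood lower in differentiation 2 and 30 higher (median -0.02 on the log2 scale), and 1 was lower with an unadjusted edgeR p under 0.05. The log2 ratio of MT protein-coding counts to the counts of these nuclear subunits was 2.59 ± 0.306 in differentiation 1 and 2.04 ± 0.378 in differentiation 2 (SD, n = 6). It was lower in 5 of 6 clones, by 0.541 on average, and the exception was A, which was higher by 0.0686 (exact paired permutation p = 0.0625). Summed nuclear subunits held 0.616% to 0.797% of counts. In differentiation 2 they were lower in 4 of 6 clones as a share of counts and in 3 of 6 as CPM.

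Genes that copy, process and maintain the mitochondrial genome were read from the same fit, in which 50.8% of all genes were lower and 3.89% were lower with an unadjusted p under 0.05. Of 7 genes of mtDNA transcription, 6 were lower in differentiation 2 with a median of -0.06, and the summed level of the list was lower in 6 of 6 clones. POLRMT, the mitochondrial RNA polymerase, had a log2 fold change of -0.15 (SE 0.0586, edgeR adjusted p = 0.459). TFB2M, which helps the polymerase to open promoters, stood at -0.16 (SE 0.114) and TEFM, an elongation factor, at 0.02. Among 12 genes of mtDNA replication and the nucleoid, 10 were lower, 2 of them with an unadjusted p under 0.05, among them ATAD3A (-0.23, SE 0.0854), a membrane ATPase tied to nucleoids. The helicase TWNK stood at -0.08 and RNASEH1, which removes RNA primers, at -0.08. Of 19 genes of RNA processing and decay, 12 were lower and 1 of these had an unadjusted p under 0.05, with PNPT1, an exoribonuclease, at -0.09, HSD17B10, a subunit of the tRNA-processing RNase P, at -0.18, and the oligoribonuclease REXO2 at 0.08. Of 19 genes of RNA modification, 10 were lower, 2 with an unadjusted p under 0.05, namely GTPBP3 (-0.34, SE 0.0944) and METTL17 (-0.23, SE 0.0886), while TRIT1 stood at -0.10. Of 9 regulators of mitochondrial biogenesis 6 were higher and 3 lower, and the lower genes were PPRC1 (-0.16), MYC (-0.09) and ESRRA (-0.17, SE 0.0666), of which ESRRA had an unadjusted p under 0.05. None of these nuclear genes had an adjusted p under 0.05 in edgeR.

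LACTB KO was compared with WT over 3 against 3 clones. No member differed beyond the spread between clones. edgeR's quasi-likelihood test called 0 of 17577 genes at an adjusted p under 0.05, whereas 1118 (6.36%) stood under 0.05 before adjustment, with no member among them. Of the 15 members 3 were higher (against 51.7% of all genes) and 12 lower (48.3%), the median on the log2 scale being -0.07 against 0.007 over all genes, and adjusted p from 0.880 to 0.995. No member had clone means that did not overlap between genotypes, against 1877 of 17577 genes (10.7%), and for 13 of 15 all LACTB KO clones lay within the range of the WT clones.

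The largest positive value was that of MT-ATP8, 0.20 (SE 0.202, 95% interval -0.28 to 0.68), and MT-ATP6 had 0.13 (SE 0.166, -0.26 to 0.52). Mean MT-CO1 was 13984 ± 3871 CPM for WT and 13271 ± 3054 CPM for LACTB KO (SD over 6 libraries each), and its log2 fold change was -0.07 (SE 0.190, -0.52 to 0.38). MT-CYB, at -0.16 (SE 0.201), and MT-ND6, at -0.22 (SE 0.213), were among the lower members. The rRNAs had the most negative and the least precise values, -0.25 for MT-RNR1 (SE 0.276, -0.90 to 0.41) and -0.18 for MT-RNR2 (SE 0.268, -0.82 to 0.45). The intervals of all 15 members held 0, and a p that misses the threshold does not show that levels were alike.

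The direction rested on clone J. Without J all 15 members were higher in LACTB KO, with a median of 0.10, and without K 14 of 15 were lower, with a median of -0.24. Without clone B, which kept the most LACTB RNA, 7 were higher and 8 lower. Without J1, K2 and B2, the libraries with the highest stromal sums, 11 were higher and 4 lower, with a median of 0.04. Within differentiation 1 alone 4 members were higher and 11 lower (median -0.06), and within differentiation 2 alone 2 were higher and 13 lower (median -0.13), with 0 members below an unadjusted edgeR p of 0.05 in either.

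**Figure D5:**
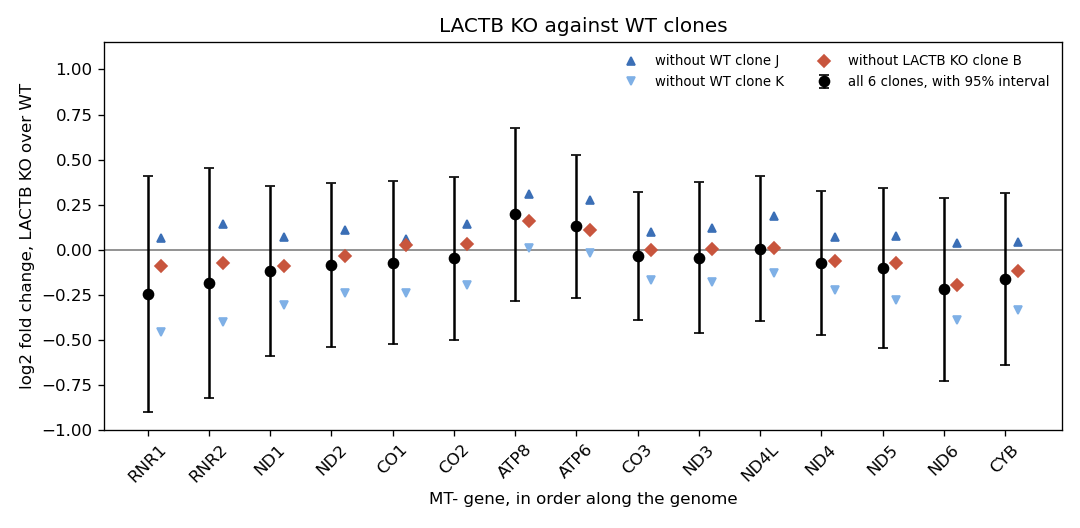
Log2 fold change of LACTB KO over WT for the 15 members in order along the mitochondrial genome, with black points for the fit to 6 clones and bars for its 95% interval, and coloured symbols for the fits without WT clone J, without WT clone K and without LACTB KO clone B. All 15 intervals include 0, and the values without J lie above 0 and those without K below it, apart from MT-ATP8 at 0.01.

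The MT share was 4.55% ± 1.31 in WT and 4.29% ± 1.05 in LACTB KO (SD, n = 6 libraries of 3 clones). The clone means differed by -0.265 points (exact permutation p = 0.8, two-sided, and 3 clones against 3 cannot give a p below 0.1). Without clone J the difference turned to 0.266 points, and without J1, K2 and B2 to 0.167. By differentiation, the means were 5.31% in WT and 5.01% in LACTB KO in differentiation 1, and 3.80% and 3.57% in differentiation 2. Summed stromal genes ran from 161.7 to 15860 CPM in WT and from 134.8 to 2233 in LACTB KO, ranges that overlap, with the highest sums in J1 and K2. All 18 stromal genes tested were lower in LACTB KO, against 48.3% of all genes. Of these, 15 had an unadjusted edgeR p under 0.05, against 6.36% of all genes in either direction, and 0 an adjusted one. The part of stromal genes in these values was not tested.

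For the make-up of MT counts, 2 measures reached the smallest p possible between genotypes. The complex V genes held 4.07% of MT protein-coding counts in J, 4.10% in K and 4.12% in L, and 4.63% in A, 5.02% in B and 4.37% in C. The LACTB KO clone means lay above all WT clone means, by 0.579 points (exact permutation p = 0.1, adjusted over 7 measures 0.35). MT-CYB, the only complex III gene, held 6.31%, 5.93% and 5.81% in J, K and L and 5.78%, 5.78% and 5.43% in A, B and C, lower by 0.354 points (exact permutation p = 0.1, adjusted 0.35). Clone L and clone A were nearly level in this measure. The rRNA part (-0.990 points), the complex I part (-0.706), the complex IV part (0.482) and the MT-ND6 part (-0.304) had exact permutation p from 0.3 to 0.7.

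The ratio of MT mRNA to nuclear subunit counts differed by -0.110 on the log2 scale between genotypes (exact permutation p = 0.6). Of the 78 nuclear subunits 63 were higher in LACTB KO (median 0.03 on the log2 scale), and 0 had an unadjusted edgeR p under 0.05, the smallest p being those of the complex V subunit ATP5F1D (0.15) and the complex I subunits NDUFB2 (0.16) and NDUFA12 (0.15). Over all genes tested 51.7% were higher. The small shifts were also upward for 12 of 12 genes of mtDNA replication (median 0.12; ATAD3A 0.23, TWNK 0.18, RNASEH1 0.13), 15 of 19 of RNA processing and decay (0.06; PNPT1 0.15, HSD17B10 0.17, REXO2 -0.21), 16 of 19 of RNA modification (0.06; TRIT1 0.18, GTPBP3 0.21) and 7 of 9 biogenesis regulators (0.09; PPRC1 0.12, ESRRA 0.10, MYC 0.20). Of the 7 genes of mtDNA transcription 6 were higher (TFB2M 0.23, TEFM 0.08), and POLRMT had a log2 fold change of 0.20 (SE 0.0685, edgeR adjusted p = 0.726). POLRMT and METTL17 (0.18, edgeR adjusted p = 0.761) were the members of these lists with an unadjusted p under 0.05, against 141 genes (0.802%) that were higher over all genes tested.

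The difference between differentiations was also compared between genotypes. For the 15 members the interaction ranged from -0.30 (MT-ATP8) to 0.06 (MT-CO1) on the log2 scale, with SE of 0.203 to 0.440, and edgeR's quasi-likelihood test gave 0 of them an unadjusted p under 0.05, against 153 of 16681 genes (0.917%), and 0 genes an adjusted p under 0.05. The change in MT share differed between genotypes by 0.0766 points (exact permutation p = 0.9). Among WT clones alone 12 of 13 protein-coding members were lower in differentiation 2 with an unadjusted edgeR p under 0.05, against 271 of 15970 genes (1.7%). Among LACTB KO clones alone it was 10 of 13, against 237 of 15509 genes (1.53%).

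The 22 tRNA genes were nearly empty in these libraries of polyadenylated RNA, so their counts are not read as tRNA levels. They held 73 counts in all, 2 to 11 per library, and 12 of them stood at 0 in every library, where a count of 0 allows up to 3 counts per library (counting error only). MT-TA, the tRNA for alanine, held 38 of the 73 counts and reached 8 in K2, followed by MT-TC with 11 and MT-TE with 8. Of the 73 counts, 70 lay on the 8 tRNA genes of the minus strand and 3 on the 14 of the plus strand. As the kit does not mark strand, these reads cannot be told from RNA of the opposite strand. MT-TA lies on the minus strand between MT-ND2 and MT-CO1, and its gene sequence is printed 5′ to 3′ on that strand because it held the most counts of the tRNA genes.
MT-TA (chrM:5587-5655): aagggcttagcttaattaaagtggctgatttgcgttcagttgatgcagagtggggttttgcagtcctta

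Nuclear copies of mitochondrial DNA can share reads with the members. The table holds 402 such genes by name, 23 with a mean of at least 10 counts, and together they held 54114 counts, or 0.331 to 0.432 per 100 MT counts in a library. Most lay on 5 genes, which held 46141. MTATP6P1, on the plus strand at chr1:633696-634376, had a mean of 2555 counts and took 5.12% to 6.80% of the counts of the pair it forms with MT-ATP6. The others took less of their pair, 0.206% to 0.267% for MTCO1P12, a mean of 0.311% for MTND2P28, 0.0291% to 0.297% for MTCO3P29 and 0.00591% to 0.0422% for MTCO1P40.

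MTATP6P1 was identical to MT-ATP6 at 671 of 681 bases (98.5%), with a longest identical run of 141 bases. The first of the 10 differences, G19A counted from the first base of MT-ATP6 (reference base of MT-ATP6 first), is printed with 12 bases on each side, plus strand, with the differing base in capitals, to show how little separates the pair.
MT-ATP6 (chrM:8533-8557): gaaaatctgttcGcttcattcattg
MTATP6P1 (chr1:633702-633726): gaaaatctgttcActtcattcattg

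MTCO1P12 and MTND2P28 were 98.7% and 98.4% identical to MT-CO1 and MT-ND2, with longer identical runs of 245 and 266 bases, MTCO1P40 was 96.0% identical where it aligned, and MTCO3P29 was 77.5% identical to MT-CO3. With the counts of all nuclear copies added to the member each is named for, MT-ATP6 kept the lowest log2 value in differentiation 2 (-0.76), and the genotype comparison again had 3 members higher and 12 lower. The counts of MT-ATP6, MT-CO1 and MT-ND2 and of their copies are uncertain to the extent that reads were divided between them.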

How the data were processed

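Polyadenylated RNA of 12 iMGL libraries was sequenced from both ends (TruSeq RNA kit v2, which does not mark strand). STAR alignment to hg38 was done by the authors, whose deposited table holds unscaled estimated counts; the counting tool, annotation and strand setting are not given in the sources used here, and the submitters' processing notes name R 4.3.3. Between 10.8% and 11.5% of values in a library were not whole, so expected counts were rounded, although whole counts had been planned for. Depth of 24153233 to 28406943 counts per library bounds the counting error. Counts were summed per clone (3 against 3) and tested with edgeR 4.0.16 (TMM, filterByExpr, quasi-likelihood test, Benjamini-Hochberg, threshold 0.05) in R 4.3.3. Differentiation and interaction were fitted to 12 libraries with clone fixed; the study's mixed model (DREAM) was not used. DESeq2 1.42.0 and limma 3.58.1 served as alternatives. Shares and ratios were compared by exact permutation tests (SciPy 1.17.1). CPM used TMM-scaled totals. Gene models and sequences came from GENCODE 44 and hg38, with copies aligned in Biopython 1.88. Steps were tested on simulated data. Members and lists were chosen with earlier results of these data known. Named were all protein-coding and rRNA members, tRNAs by counts, the 5 most abundant nuclear copies, LACTB, and the 3 genes of smallest genotype p in each nuclear list. The tRNA genes named, TMEM119 and marker genes at 0 were named after their values were seen.

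The labels give the differentiation number as the batch, which could pair libraries across genotypes. With each genotype's mean taken off, libraries that share the number across genotypes correlated at a mean r of 0.0363 (18 pairs, -0.499 to 0.606), and those of other differentiations at -0.0357 (18 pairs, -0.556 to 0.375). The ranges overlapped widely, so no pairing by number was apparent.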

Additional observations from a re-analysis of the deposited data

Results flagged for a closer look

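Among 58 groups of 6 libraries examined, 2 held a library farther from the others, relative to the range, than Dixon's limit allows. Chance alone flags about 1 in 20 groups. In LACTB KO, MT-RNR2 was lowest in B2 at 4687 CPM, with the nearest library at 7046 CPM. In WT, tRNA genes held 0.00145% of MT counts in K2, with the nearest library at 0.000704%, a value that rests on 11 or fewer counts per library.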

How the results depend on the processing

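In sign, the lower level of all 15 members in differentiation 2 held under total counts, DESeq2 size factors and no expression filter. It also held with library sizes from nuclear genes alone, with added nuclear copies and with each clone left out. MT-RNR1 was near 0 in some fits, at -0.00558 without clone B and -0.0133 in WT clones alone. In clones L, A and C alone, MT-RNR1 stood at 0.0406. For all genes, calls between differentiations were 0 in the fit reported, 80 without an expression filter, 278 with DESeq2, 10 in LACTB KO clones alone and 0 to 50 with a clone left out (50 without J). Between genotypes they were 0, 2 without a filter, 208 with DESeq2 and 0 to 1 with a clone left out (1 without L or without B). With the differentiation as replicate block, MT-ND4L turned to -0.00103, and no other member turned or gained a call; it stood at -0.00154 in limma voom and -0.0307 in differentiation 2 alone, and MT-ND3 at 0.0940 in differentiation 1 alone.

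Without J1, K2 and B2 (chosen after seeing the data), genotype values turned to 0.0527 for MT-ND1, 0.0223 for MT-ND2, 0.0443 for MT-CO1, 0.0837 for MT-CO2, 0.134 for MT-CO3, 0.0263 for MT-ND3, 0.0625 for MT-ND4 and 0.0380 for MT-ND5, the MT share to 0.167 points and the mitonuclear log2 ratio to 0.0683. Leaving out each clone gave genotype ranges of -0.46 to 0.0660 for MT-RNR1, -0.40 to 0.14 for MT-RNR2, -0.31 to 0.0705 for MT-ND1, -0.24 to 0.11 for MT-ND2, -0.24 to 0.0616 for MT-CO1, -0.20 to 0.14 for MT-CO2, -0.0186 to 0.27 for MT-ATP6, -0.17 to 0.10 for MT-CO3, -0.18 to 0.12 for MT-ND3, -0.13 to 0.19 for MT-ND4L, -0.22 to 0.0736 for MT-ND4, -0.28 to 0.0762 for MT-ND5, -0.39 to 0.0377 for MT-ND6 and -0.34 to 0.0436 for MT-CYB, while MT-ATP8 stayed above 0.

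In points, leaving out each clone gave -0.844 to 0.266 for the MT share between genotypes, -1.72 to -1.21 between differentiations and -0.505 to 0.760 for the interaction. The rRNA part gave -1.70 to 0.335 between genotypes and 3.49 to 4.53 between differentiations, complex III -0.0128 to 0.0897 between differentiations, complex IV -0.288 to 1.24 between genotypes, and complex V -0.768 to -0.487 between differentiations and -0.604 to 0.127 for the interaction. The mitonuclear log2 ratio gave -0.334 to 0.0340 between genotypes and -0.0849 to 0.437 for the interaction. With 5 clones the exact paired permutation test cannot go below p = 0.0625, so no share could pass there. The cause of these turns was not tested.

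With 3 clones against 3, genotype differences of the members were bounded only to the intervals given, and the tRNA genes were too shallow for any comparison.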
